A study of Caenorhabditis elegans with 32 samples.

Results

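Small RNA counts at 6 of the 46779 features counted in every library are described here: a gfp transgene (row WBGeneGFP), the genes mex-5 (WBGene00003230) and tbb-2 (WBGene00006537) whose names appear in its label, and the chromosome II genes F14E5.8 (WBGene00195147), efl-3 (WBGene00009899) and F14E5.2 (WBGene00008800). They were selected by name from an earlier look at the same libraries, in which small RNAs at gfp and F14E5.8 had stood out in descendants of animals given gfp double-stranded RNA (dsRNA). The levels in those descendants are therefore given as a description without a test. Tests are given for comparisons without these descendants.

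In Caenorhabditis elegans, dsRNA against a gene expressed in the germline silences it, and the silencing can pass to untreated progeny. RNA-dependent RNA polymerases use the targeted messenger RNA as a template for secondary small RNAs, which Argonaute proteins carry, in the germline also into the nucleus and to the next generation. Germ granules such as P granules, which hold many of these proteins, are disturbed in embryos that lack MEG-3 and MEG-4, which are disordered granule proteins, or PPTR-1, a regulatory subunit of the phosphatase PP2A. A germline gfp transgene is a common reporter because worms have no gfp gene of their own.

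Small RNA was sequenced from dissected gonads of young adults grown at 20 C on E. coli OP-50, in 32 libraries of 11 groups. Every group carried the transgene, named Pmex-5::gfp::h2b::tbb-2 in the labels and integrated as mjIs134: the mex-5 promoter drives expression in the germline, and the label places it on chromosome II, with the position within that chromosome not given in the sources used here. Wild type means strain SX1263, which holds this transgene only. The 4 phenol groups were extracted with TRIZOL, a phenol reagent: untreated wild type (3 libraries), untreated pptr-1(tm3103) mutants of strain BFF39 (3), and the F6 generation of gfp-dsRNA-treated ancestors in wild type (3) and in pptr-1(tm3103) (2). The other 7 groups, of 3 libraries each, were extracted with the miRNeasy column kit: wild type, strain BFF40 with meg-3(tm4259) and meg-4(ax2026) kept for over 80 generations, meg-3(tm4259);meg-4(ax2026) animals at F15 of a cross of SX1263 hermaphrodites with BFF40 males, and wild-type and meg-3(tm4259);meg-4(ax2026) F2 animals of that cross and of its reciprocal. The first cross is called paternal and the reciprocal maternal, by the parent that brought the mutations. These double mutants are called meg below. No column-kit library had gfp dsRNA in its labels.

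Counts assigned to features ranged from 2684285 to 14871375 per library, apart from the third long-term meg library with 126214. In the phenol set, depth moved with ancestry: the 5 F6 libraries held 3660141 to 5915557 feature counts and the 6 untreated libraries 6451205 to 12663545, and its part in the results was not tested. Levels are counts per 1000000 counts assigned to features (CPM). A count of 3, used as the detection floor, equals 23.8 CPM in the shallow library and 0.202 to 1.12 CPM in the others, and covers counting error only. Extraction coincided with the experiment, so phenol and column-kit groups were never tested against each other. The 7 germline marker genes, among them pgl-1 and glp-1, summed to 806 to 1422 CPM of small RNA and 9 somatic genes to 59.4 to 188 CPM over the libraries. The neuronal gene unc-119 averaged 88.5 CPM in column-kit and 66.6 in phenol libraries, and each other somatic gene at most 12.0. It lay above the germline markers oma-1 (31.3 and 33.4) and nos-2 (21.6 and 18.9). The sums check the gonad label only in part, because small RNAs are not transcripts.

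Without dsRNA ancestors, small RNAs at gfp were present at a low and similar level in every group. The 27 such libraries ran from 31.7 to 84.2 CPM, with a median of 62.5. Wild-type phenol libraries had 53.9, 52.0 and 66.2 CPM, and untreated pptr-1 libraries had 46.3, 69.7 and 78.7. The pptr-1 values lay on both sides of the wild-type ones.

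In F6 descendants of dsRNA-treated animals, every library exceeded that range. Wild-type F6 libraries had 396, 152 and 702 CPM at gfp, from 2129, 768 and 4155 counts. Both pptr-1 F6 libraries were higher still and close to each other, at 1508 and 1535 CPM from 5520 and 6273 counts. The wild-type F6 libraries were spread far more widely (417 ± 276 CPM, SD, n = 3) than the pptr-1 F6 libraries (1521 ± 18.7, SD, n = 2), and no library of one genotype overlapped the other. As a background, F6 and untreated libraries did not overlap for 15.3% of all 10873 features in wild type and 29.6% in pptr-1, and the F6 groups did not overlap for 44.1%.

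Relative to untreated animals of the same genotype, the mean gfp level was 7.27-fold higher in wild-type F6 and 23.4-fold higher in pptr-1 F6. The fitted log2 fold changes were 2.93 (SE 0.41) and 4.41 (SE 0.46), ranking 4 and 3 from the top among 10873 features in the respective comparisons. The difference between these log2 responses was 1.48 (SE 0.57), pptr-1 minus wild type, and between the F6 groups directly the log2 fold change was 1.73 (SE 0.42). Each of these values uses contrasts that are counted as having chosen gfp, so no test is attached.

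**Figure D1:**
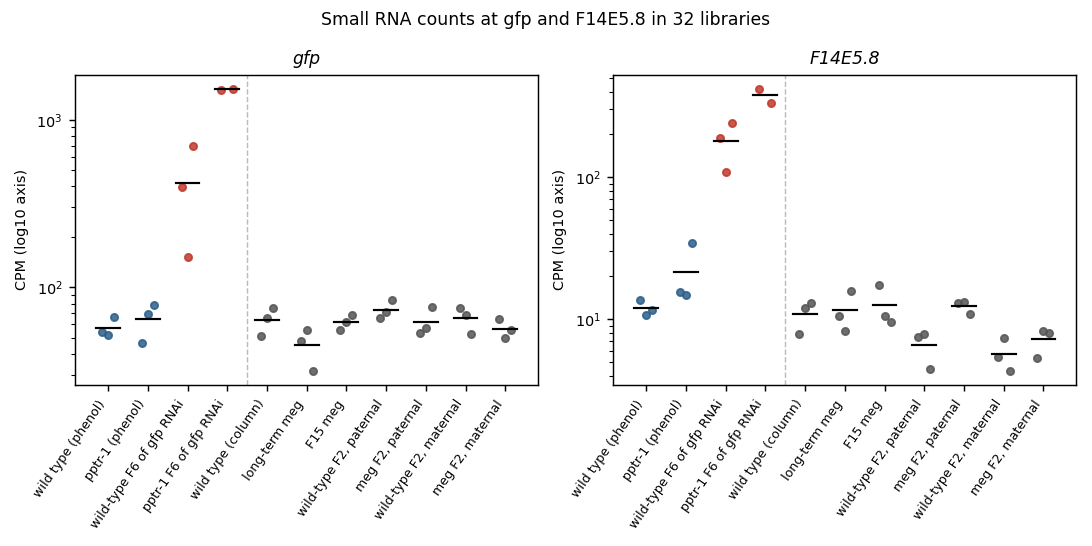
Small RNA level in CPM (log10 axes) at gfp (left) and F14E5.8 (right), 1 point per library and a bar at the mean of each of 11 groups; blue marks untreated phenol, red F6 of gfp RNAi and grey column-kit libraries. At gfp the 5 red points lie at 152 CPM or above and all others at 84.2 CPM or below, and at F14E5.8 the red points lie at 108 CPM or above and all others at 34.1 CPM or below.

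F14E5.8, a protein-coding gene of 905 exonic bp on the plus strand (WBcel235, II:8420098-8422186), had the pattern most like that of gfp. Both had stood out in the F6 libraries when the genes were chosen. Untreated wild-type phenol libraries had 13.6, 10.7 and 11.6 CPM, untreated pptr-1 had 15.6, 14.8 and 34.1, wild-type F6 had 189, 108 and 243, and pptr-1 F6 had 421 and 334. All F6 libraries stood above all untreated ones, and both pptr-1 F6 libraries stood above the 3 wild-type F6 libraries. The gene body overlaps a pseudogene on the other strand, WBGene00175025, which itself had at most 0.0660 CPM in any phenol group mean.

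The F6 means were 15.0-fold above untreated wild type and 17.5-fold above untreated pptr-1 at F14E5.8. The log2 fold changes of 3.98 (SE 0.36) and 4.01 (SE 0.37) ranked 3 and 4 from the top. Their difference was 0.03 (SE 0.50), against 1.48 (SE 0.57) at gfp, and the log2 fold change of pptr-1 F6 over wild-type F6 was 0.92 (SE 0.34). Per kilobase of exon, the F14E5.8 level was 13.2 ± 1.65 CPM (SD, n = 3) in untreated wild type, 199 ± 74.7 (n = 3) in wild-type F6 and 417 ± 68.0 (n = 2) in pptr-1 F6. The length of the gfp row is not given in the sources used here, so its level has no counterpart per length.

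Within the wild-type F6 group, gfp and F14E5.8 ordered the libraries alike: the second was lowest and the third highest at both. The F14E5.8 count as a percentage of the gfp count nonetheless differed, at 47.8%, 71.2% and 34.5% in the 3 wild-type F6 libraries. In pptr-1 F6 it was 27.9% and 21.7%, below all 3. Untreated wild-type phenol libraries had 25.3%, 20.6% and 17.5%, all below wild-type F6. Untreated pptr-1 libraries had 33.7%, 21.2% and 43.3%, a range that held both pptr-1 F6 values and overlapped that of wild-type F6. Column-kit libraries ran from 5.25% to 50%, the latter from 2 F14E5.8 counts in the shallow library.

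The genes that flank F14E5.8 did not share its F6 level. F14E5.2 (II:8423953-8428858, minus strand) lies 1766 bp away and had 112, 123 and 138 CPM in untreated wild type, 109, 112 and 116 in wild-type F6, 99.2, 108 and 117 in untreated pptr-1, and 120 and 108 in pptr-1 F6. These groups overlapped, with log2 fold changes of -0.07 (SE 0.12) and -0.08 (SE 0.13), the latter 0.08 under total-count scaling. The gene fdgt-2, 271 bp on the other side, was under 5 CPM throughout, with means of 1.51 in untreated wild type, 0.479 in wild-type F6, 2.31 in untreated pptr-1 and 1.86 in pptr-1 F6.

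The gene efl-3, an E2F-like transcription factor gene 3240 bp from F14E5.8 (II:8412671-8416857, plus strand), had its lowest phenol levels in the F6 libraries. Its levels were 8.00, 7.74 and 5.32 CPM in untreated wild type against 3.91, 2.77 and 4.23 in wild-type F6. In pptr-1 they were 13.9, 21.3 and 18.1 untreated against 3.82 and 2.20 in F6. No F6 library reached an untreated one in either genotype. The F6 values rest on 21, 14 and 25 counts in wild type and 14 and 9 in pptr-1. In wild type, counting error alone spans the gap: 95% Wilson intervals were 2.86 to 6.24 CPM in the third F6 library and 4.04 to 6.99 in the fifth-numbered untreated one. The mean was 1.93-fold lower in wild-type F6 and 5.90-fold lower in pptr-1 F6, with log2 fold changes of -0.88 (SE 0.30) and -2.71 (SE 0.38).

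Of 34 annotated features within 50 kb of F14E5.8, 12 had a mean of at least 5 CPM in a phenol group, and F14E5.8 alone was 2-fold or more above untreated in F6, in both genotypes. The other 11 had F6 to untreated ratios of 0.518 to 1.33 in wild type and 0.169 to 1.60 in pptr-1, efl-3 being the lowest in both. Leaving efl-3 out, the lowest ratio in pptr-1 was 0.905 over 10 features. The most abundant neighbour was zyg-9, which encodes a microtubule-associated protein, at 334 ± 47.5 CPM in untreated wild type and 309 ± 39.7 in wild-type F6 (SD, n = 3 each).

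**Figure D2:**
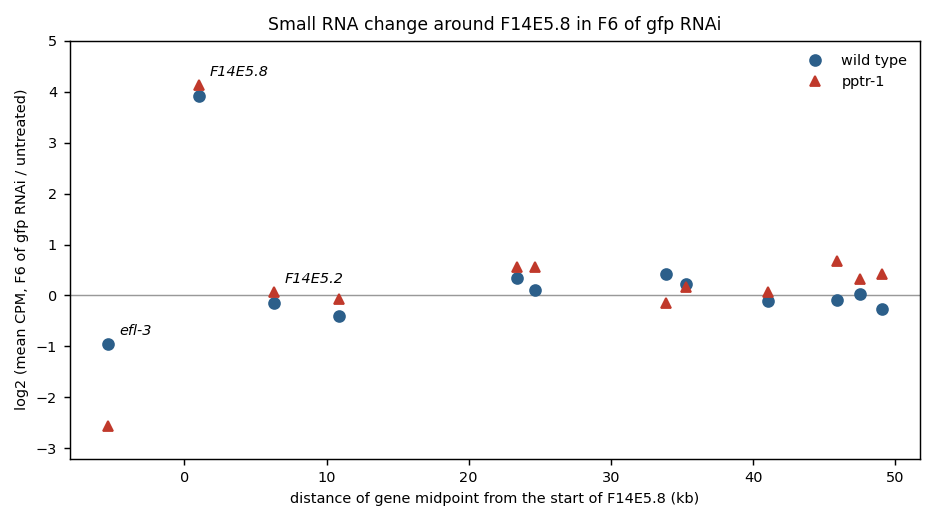
Log2 ratio of mean CPM, F6 of gfp RNAi over untreated, against the distance in kb of the gene midpoint from the start of F14E5.8, for the 12 features with at least 5 CPM in a phenol group; circles are wild type and triangles pptr-1. F14E5.8 lies at 3.91 and 4.13, efl-3 at -0.95 and -2.56, and the other features between -0.41 and 0.68.

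The endogenous genes named in the transgene label had F6 levels that overlapped their untreated ones. The gene mex-5, which encodes a zinc-finger RNA-binding protein of early embryo polarity (IV:13353723-13356104), had 101, 92.3 and 113 CPM in untreated wild type and 125, 109 and 88.6 in wild-type F6. In pptr-1 it had 45.7, 99.1 and 102 CPM untreated and 97.5 and 110 in F6. The groups overlapped in both genotypes, and the log2 fold changes were 0.15 (SE 0.22) and 0.21 (SE 0.25).

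The beta-tubulin gene tbb-2 (III:4015910-4017627, minus strand) overlaps the annotated piRNA locus 21ur-13952. It had 150, 163 and 166 CPM in untreated wild type, 186, 138 and 90.8 in wild-type F6, 69.5, 208 and 203 in untreated pptr-1, and 131 and 126 in pptr-1 F6. F6 and untreated libraries overlapped in both genotypes, with log2 fold changes of -0.14 (SE 0.32) and -0.43 (SE 0.36). The first untreated pptr-1 library was the lowest of all phenol libraries at mex-5 and at tbb-2. Within wild-type F6, mex-5 and tbb-2 were lowest in the third library, the one with the highest gfp and F14E5.8 levels.

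Both annotated rows named his-58, an H2B histone gene of a family with near-identical copies, had few small RNAs. Their group means ran from 0.809 to 7.03 CPM for WBGene00001932 and from 2.38 to 8.46 CPM for WBGene00001940, the top value of each being that of pptr-1 F6. The pptr-1 F6 libraries overlapped the untreated pptr-1 libraries at both. They had 5.74 to 8.32 CPM against 2.46 to 6.20 at WBGene00001932, and 7.38 to 9.54 against 4.50 to 7.79 at WBGene00001940. The transgene label does not say which H2B gene it holds, and how reads shared between copies were counted is not stated.

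The libraries of F6 and untreated animals did not overlap for 3 of the 6 genes in wild type and for the same 3 in pptr-1 (gfp, F14E5.8 and efl-3), against 15.3% and 29.6% of all features. Between the F6 groups, gfp and F14E5.8 did not overlap, against 44.1% of features. By another measure, an adjusted p under 0.05 (edgeR), 0.0644% of features were called in F6 against untreated wild type, 0.0644% in F6 against untreated pptr-1, and 7.73% between the F6 groups. These shares are given as background only, because the same contrasts are counted as having chosen the genes.

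**Figure D3:**
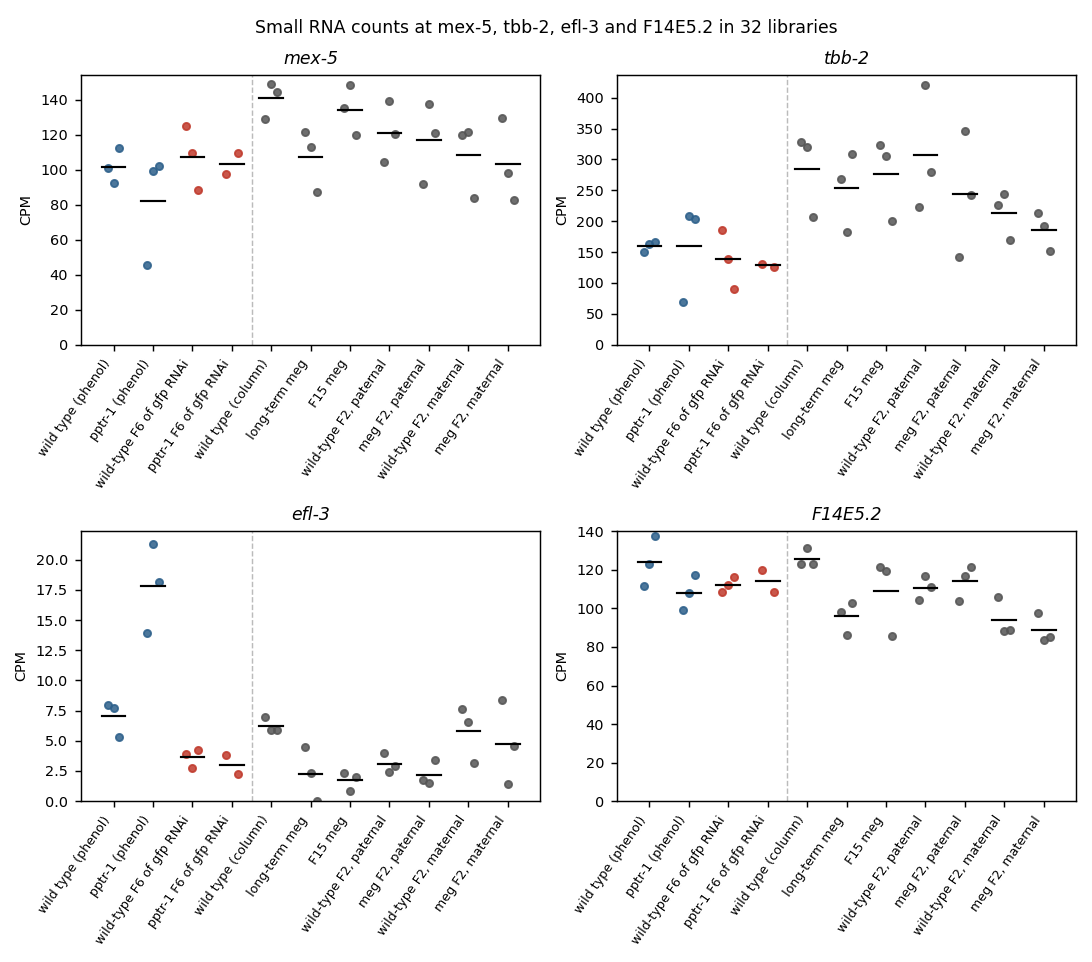
Small RNA level in CPM (linear axes from 0) at mex-5, tbb-2, efl-3 and F14E5.2, 1 point per library and a bar at each group mean, with colours as for gfp. The F6 points of efl-3 lie at 2.20 to 4.23 CPM, below the untreated phenol points at 5.32 to 21.3 CPM, while those of the other 3 genes overlap their untreated groups.

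Likeness to gfp was measured as the Euclidean distance between the log2 means of the 4 phenol groups after centring, among 7933 features. These groups include the F6 groups, in which gfp and F14E5.8 had stood out when they were chosen. The place of F14E5.8 in this order is therefore a description and no separate evidence. F14E5.8 was nearest at 0.91, and the next were moc-2 at 2.53, C32D5.15 at 2.55, Y48A6B.8 at 2.62 and spe-43 at 2.71. The same 4 features followed gfp in the order of likeness to F14E5.8, at 2.29 to 3.04. In all 4 the untreated pptr-1 mean was more than 2-fold that of untreated wild type: moc-2 had 8.08 CPM against 2.04, and C32D5.15, an ncRNA, had 86.0 CPM against 30.2. At gfp these means were 64.9 and 57.4 CPM.

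The comparison of untreated pptr-1 with untreated wild type asks what the mutation does to these small RNAs without dsRNA ancestors. It holds no F6 library, but its libraries are also the reference of the F6 comparisons. Small RNAs at efl-3 were higher in pptr-1, at 17.8 ± 3.72 CPM against 7.02 ± 1.48 (SD, n = 3 each), a 2.54-fold difference of means. The log2 fold change was 1.40 (SE 0.28, edgeR quasi-likelihood test, adjusted p = 0.0105), and all 3 pptr-1 libraries exceeded all 3 wild-type libraries. This was 1 of the 6 genes, against 6.48% of all 10873 features called, 4.14% of them higher, and groups did not overlap for 25.4% of features, with pptr-1 above for 12.4%. Leaving out the fifth-numbered wild-type library ended the call, with log2 1.18 and adjusted p = 0.0503 by edgeR, and the other leave-one-out fits gave adjusted p of 0.0197 to 0.0475.

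The other 5 genes did not pass the test in untreated pptr-1. F14E5.8 had 21.5 ± 10.9 CPM against 12.0 ± 1.49 in wild type (SD, n = 3 each), with log2 0.90 (SE 0.34) and adjusted p = 0.152 by edgeR, and 1 pptr-1 library, at 34.1 CPM, was far above the others. All 3 pptr-1 libraries still exceeded all 3 wild-type libraries at F14E5.8. With the replicate number as a block, its log2 fold change was 0.39 (adjusted p = 0.517, edgeR). For gfp the log2 fold change was 0.25 (SE 0.39, adjusted p = 0.781, edgeR). For mex-5, tbb-2 and F14E5.2 it was -0.25 (SE 0.22), 0.05 (SE 0.32) and -0.11 (SE 0.12). The labels do not say whether the replicates were separate cultures, so p-values measure only the spread between these samples.

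The column-kit groups ask whether lasting or recent loss of meg-3 and meg-4, or descent from such a parent, moved the small RNAs at these genes. None of the 6 genes passed the test in any of the 6 comparisons with wild type, while 27.0% of 10230 features did in long-term meg, 8.78% in F15 meg, 9.49% in wild-type F2 and 9.19% in meg F2 of the paternal cross, and 27.4% and 34.0% in those of the maternal cross. Of these 36 tests, 2 had an unadjusted p under 0.05 and DESeq2 called 1, all at efl-3. Scaling by total counts called F14E5.8 in wild-type F2 and F14E5.2 in meg F2 of the maternal cross. That scaling also called efl-3 in F15 meg, as did relative log expression scaling, no filter and the replicate block. No fit with 1 library left out called efl-3 there. Groups that share the wild-type libraries as reference are not independent.

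At gfp the 21 column-kit libraries ran from 31.7 to 84.2 CPM. Group means were lowest in long-term meg (45.1 ± 12.3) and highest in wild-type F2 of the paternal cross (73.6 ± 9.61), with wild type at 64.0 ± 12.3 (SD, n = 3 each), and neighbours in this order overlapped. The lowest group (31.7 to 55.8 CPM) and the highest (65.4 to 84.2) did not overlap in CPM. With TMM scaling they did, at up to 66.2 in long-term meg and down to 61.5 in that wild-type F2 group. The log2 fold changes against wild type were 0.06 to 0.35, with edgeR adjusted p of 0.223 to 0.882. Scaling by total counts moved them to between -0.39 and 0.20, with the median of all features at -0.42 to -0.10, and gfp was not called under that scaling either. At F14E5.2 the log2 fold changes were -0.11 to 0.03, at mex-5 -0.10 to 0.09 and at tbb-2 -0.18 to 0.26.

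F14E5.8 was low throughout this set, at 4.31 to 17.3 CPM, below every F6 library. Wild-type libraries had 7.83, 12.1 and 12.9 CPM, against 5.36, 7.37 and 4.31 in wild-type F2 of the maternal cross, where the log2 fold change was -0.62 (SE 0.31, edgeR adjusted p = 0.143). These groups did not overlap, as was the case for 45.2% of features in that comparison. Within the paternal cross, meg F2 libraries had 13.0, 13.1 and 10.9 CPM and wild-type F2 libraries 7.45, 7.84 and 4.42. These groups did not overlap, as was the case for 16.5% of features, and this pair was described without a test. In the maternal cross, meg F2 libraries had 5.28, 8.27 and 8.04 CPM and overlapped the wild-type F2 libraries given above.

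Levels of efl-3 in this set were at most 8.39 CPM. Wild-type libraries had 6.93, 5.86 and 5.92 CPM and F15 meg libraries 2.34, 0.84 and 2.01, so that the groups did not overlap, against 24.5% of all features. The log2 fold change was -1.65 (SE 0.52, edgeR adjusted p = 0.0571). With the replicate number as a block, by which these groups' deviations were only weakly correlated (0.109 to 0.185), it was -1.72 and passed, with adjusted p = 0.0466 (edgeR). In meg F2 of the paternal cross it was -1.33 (SE 0.54, adjusted p = 0.121, edgeR). Wild-type F2 libraries of that cross had 3.96, 2.38 and 2.95 CPM, with log2 -0.86 (SE 0.52, adjusted p = 0.291, edgeR). In long-term meg the log2 fold change was -0.56 (SE 0.58). In the maternal cross it was 0.17 (SE 0.50) in wild-type F2 and -0.04 (SE 0.51) in meg F2. The third long-term meg library had 0 efl-3 counts, with a 95% Wilson upper limit of 30.4 CPM at its depth.

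**Figure D4:**
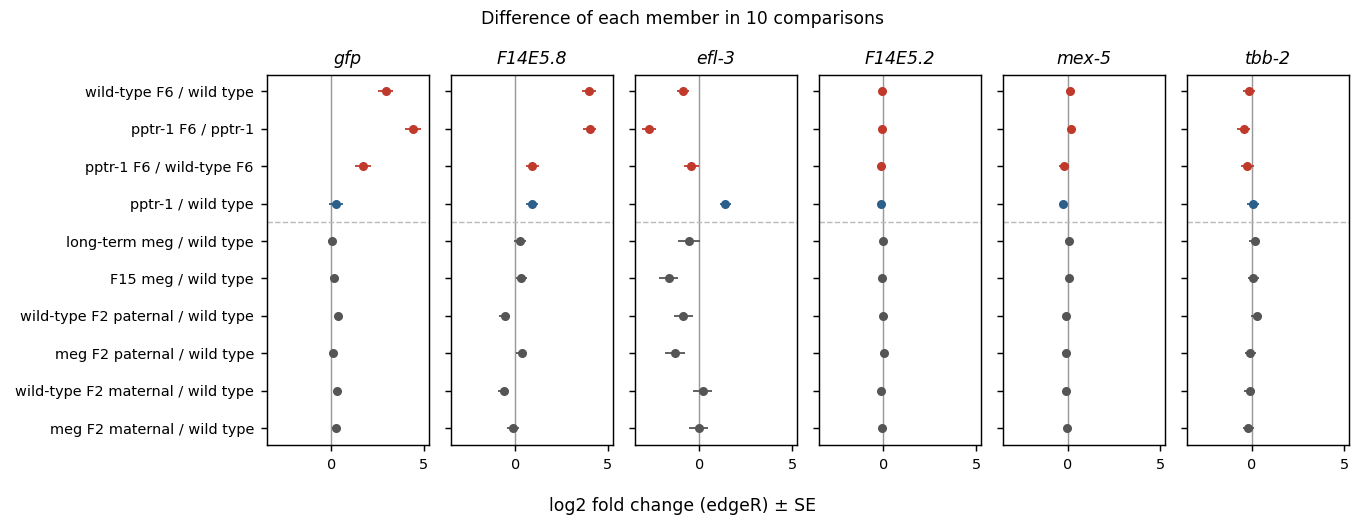
Fitted log2 fold change (points, edgeR) with its SE (lines) for the 6 genes in 10 comparisons; red marks comparisons with F6 of gfp RNAi, blue untreated pptr-1 against wild type, and grey the column-kit comparisons, which share their wild-type reference. The gfp points lie at 2.93, 4.41 and 1.73 in red and between 0.06 and 0.35 elsewhere.

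Small RNAs at 42 genes of the RNA interference pathway, among them the Argonaute gene hrde-1 and the polymerase gene ego-1, were described beside the response. None passed the test in F6 against untreated in either genotype, with 1 and 2 genes at an unadjusted p under 0.05 and 0 called by DESeq2. Over all features, 0.0644% passed in each of these comparisons. The list's median log2 fold changes were -0.05 and 0.09, against 0.01 and -0.02 over all features. In untreated pptr-1, 2 of the 42 rose (rde-11 by log2 1.01, adjusted p = 0.00457, and sid-1, which encodes a dsRNA channel, by 0.61, adjusted p = 0.0374, edgeR), rde-12 fell by 0.48 (adjusted p = 0.0380), and 39 did not pass, against 6.48% of all features called.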

How the data were processed

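The deposited tables hold the authors' raw read counts per feature, 1 file per library. Per the submitters' processing notes, cutadapt, FastQC, HTSeq and DESeq2 were used with build ce11. The aligner, the handling of strand and of reads with several matches, and size selection by RNA length are not given in the sources used here. Gene names and positions came from the Ensembl WBcel235 annotation, which has the coordinates of ce11. The gfp row is in the files only.

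Rows for unassigned reads were left out; 53.0% to 61.8% of each library's total was assigned to features. Counts were tested with edgeR 4.0.16 (TMM scaling, quasi-likelihood, Benjamini-Hochberg) among features with at least 10 counts in 3 libraries, fitting the phenol and the column-kit libraries separately. Alternatives were DESeq2 1.42.0, other scalings, no filter, a replicate block and leaving out each library. On data simulated for untreated pptr-1, 110 of 116 features changed by log2 2 and 13 of 84 changed by log2 1 were recovered. For long-term meg these were 79 of 98 and 14 of 102. The simulated dispersion was 0.1 and only features with mean counts above 50 were changed, so recovery at lower counts was not simulated. At this dispersion most changes of log2 1 were missed in either set. Features differ in their spread, and some with a smaller spread were called at such a size. An example is rde-11 in untreated pptr-1, at log2 1.01 (SE 0.17, adjusted p = 0.00457, edgeR). Same-numbered libraries deviated together weakly in F15 meg and wild type (correlations 0.124, 0.109 and 0.185). The correlations were 0.274 and 0.346 in untreated pptr-1 and wild type. In the other comparisons with at least 2 shared numbers they ran from -0.319 to 0.0783, and were negative in both F2 groups of the paternal cross. The block was fitted for every comparison as an alternative, and the pairing comes from the label numbers. All 31 replicate pairs differed beyond sampling noise.

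The 6 genes and the pathway list were chosen with earlier results of these data known. Named genes were these 6, his-58, the 5 features most like gfp and most like F14E5.8, neighbours within 50 kb, and pathway genes that passed the test.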

Additional observations from a re-analysis of the deposited data

How the results depend on the processing

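Under the 5 other settings, 130 log2 fold changes of single genes were followed. They cover all phenol comparisons, and of the meg comparisons only efl-3 in F15 meg and in meg F2 of the paternal cross. Of these, 7 changed sign, at tbb-2 and F14E5.2. At tbb-2 in untreated pptr-1, 0.05 became -0.0201 with no filter and -0.27 with the replicate block, and -0.18 to 0.37 when 1 library was left out. With the block, tbb-2 went from -0.14 to 0.60 in wild-type F6, from -0.43 to 0.92 in pptr-1 F6 and from -0.25 to 0.05 between the F6 groups, and mex-5 was 0.51 in wild-type F6 and 0.97 in pptr-1 F6. Numbers pair 2 libraries of untreated pptr-1 and wild type (correlations 0.274 and 0.346), whereas pptr-1 F6 and untreated pptr-1 share no number, so that the blocked value there rests on the other groups. With total-count scaling, F14E5.2 went from -0.08 to 0.08 in pptr-1 F6 and from -0.12 to 0.02 between the F6 groups. Of 60 values for the lowest or highest log2 fold change of a gene over the meg comparisons, 12 changed sign, at gfp, mex-5, efl-3 and F14E5.2. The gfp response stayed at 2.31 to 3.33 in wild type and 4.28 to 4.54 in pptr-1 when 1 library was left out, and that of F14E5.8 at 3.68 to 4.23 and 3.79 to 4.43.

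Genes called among the 6 in untreated pptr-1 were 2 with no filter (F14E5.8, adjusted p = 0.00121, was added) and 0 to 1 with 1 library left out. In F15 meg 1 was called, efl-3, under relative log expression or total-count scaling, no filter, the replicate block and DESeq2. Total-count scaling called 1 in each maternal F2 comparison, F14E5.8 and F14E5.2 respectively. Under that scaling the median log2 fold change of all features went from 0.04 to -0.28 in wild-type F2 and from 0.04 to -0.40 in meg F2 of that cross. The cause was not tested.

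Features called moved more. With no filter there were 1377 in untreated pptr-1 (main 705), 293 in wild-type F6 (7), 267 in pptr-1 F6 (7), 1688 between F6 groups (841), 1399 in F15 meg (898) and 1474 in meg F2 of the paternal cross (940). DESeq2 called 1061, 74, 118 and 1284 in the first 4. The replicate block gave 22 in wild-type F6, 60 in pptr-1 F6, 187 in wild-type F2 of the paternal cross (971), 463 in meg F2 of that cross and 1863 in wild-type F2 of the maternal cross (2805). Leaving out 1 library gave 425 to 615 in untreated pptr-1, 2 to 7 in wild-type F6, 2 to 7 in pptr-1 F6, 186 to 618 between F6 groups, 1698 to 2608 in long-term meg, 505 to 904 in F15 meg, 104 to 738 and 331 to 829 in wild-type and meg F2 of the paternal cross, and 1795 to 2414 and 2515 to 3034 in those of the maternal cross. Depth limits the low rows, since the shallow library held 0 counts at efl-3 and 2 at F14E5.8, and the F6 comparison in pptr-1 rests on 2 libraries.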
